A study of Mus musculus with 9 samples.

Results

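Interleukin 11 (IL11) was set directly against interleukin 6 (IL6) in gastric tumours, on 3 arrays of IL11-treated mice and 3 arrays of IL6-treated mice. These were 6 of the 9 arrays of the study. The tumours came from mice of the genotype gp130Y575F/F, aged 6 to 8 weeks, on a mixed 129/BL6 background, and the PBS controls carried the same genotype. Each mouse received 1 intraperitoneal injection of 5 µg recombinant human IL6 or IL11 in 200 µl PBS, or of PBS alone, and tumours were resected 60 min later. Each array held the total RNA of a tumour from 1 mouse, measured on an Illumina MouseWG-6 bead array. No dose or time other than these was used, so the comparison describes 5 µg of each cytokine at 60 min. Of the 45281 probes on the array, 17843 reached the detection limit on 3 or more of the 6 cytokine arrays, and the comparison was made over these, which covered 12311 genes.

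IL6 and IL11 each bind a private receptor chain, encoded by Il6ra and Il11ra1, and signal through gp130, the shared chain encoded by Il6st. Bound gp130 activates JAK kinases and the transcription factor STAT3, and Socs3 is a rapidly induced STAT3 target whose protein dampens gp130 signalling. In these mice both copies of gp130 carry a tyrosine-to-phenylalanine change, as the allele name is labelled. IL11 is known as a driver of gastric tumour growth in mice with mutant gp130.

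Tumours given IL11 and tumours given IL6 had closely similar transcript profiles at 60 min. The difference that passed the adjusted threshold lay in the gene of an inducible chaperone. That call depended on the processing and on single arrays, as described below. Of 17843 probes, 2 (0.0112%) differed at an adjusted p under 0.05 in limma, and both were probes of Hspa1a, lower with IL11. No probe was higher with IL11 at this threshold (0%), where the smallest adjusted p was 0.494. At an unadjusted p under 0.05 there were 881 probes (4.94%), of which 435 (2.44%) were higher with IL11 and 446 (2.5%) were lower. This even split, 49.4% higher, depends on the normalization. With arrays scaled to a common median, 12.3% of 914 such probes were higher with IL11 and the median difference of all genes moved to -0.13, so list medians are read against that of all genes. The 3 IL11 arrays lay wholly above or wholly below the 3 IL6 arrays for 1853 probes (10.4%), above for 852 (4.77%) and below for 1001 (5.61%). The median absolute difference was 0.14 on the log2 scale, against a median standard error (SE) of 0.19. For 16520 probes (92.6%) the 95% interval of the difference lay within 2-fold either way, so larger differences were bounded for most, but not all, of the transcripts measured.

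**Figure D1:**
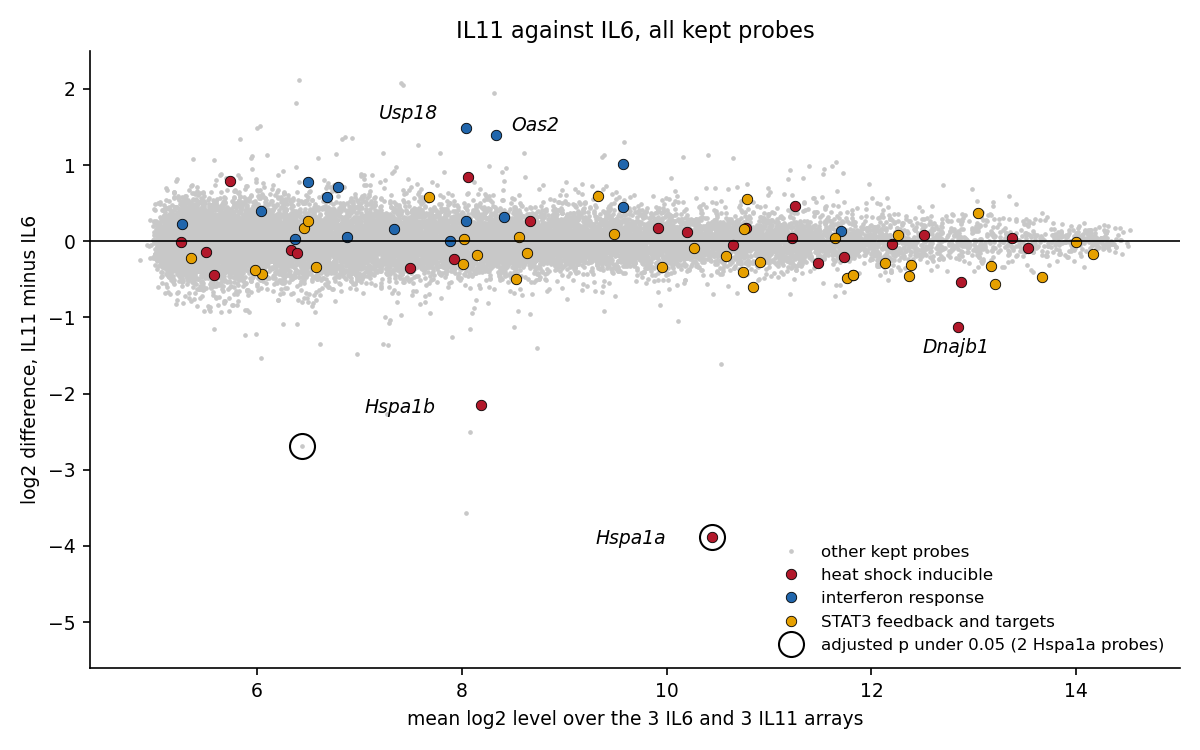
Difference between IL11 and IL6 (log2, y axis) against mean level over the 6 arrays (log2, x axis), 1 point per kept probe, with the probe that stands for each gene of 3 lists coloured. The 2 circled Hspa1a probes passed the adjusted threshold, and the interferon-response genes lie mostly above 0 while most STAT3 targets lie below it.

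The arrays themselves gave no separation of the cytokines as a whole. Correlations over kept probes were 0.977 to 0.982 among IL6 arrays, 0.981 to 0.985 among IL11 arrays and 0.978 to 0.989 between the groups. The first principal component of the 6 arrays held 28.1% of the variance and set IL6 replicate 2 apart, and the second held 23.3% and set IL6 replicate 3 apart. The IL6 arrays had a mean raw signal between 398 and 652 and the IL11 arrays between 448 and 524. The share of detected probes was 37.5% to 40.1%. As for the tissue, the stomach-surface transcripts Gkn1 and Gkn2 and the brighter Gkn3 probe lay between 13.65 and 14.52 on all 6 arrays and all 9 epithelial markers were measured. The parietal cell pump genes Atp4a and Atp4b were not among the kept probes.

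Hspa1a encodes an inducible Hsp70, a chaperone that refolds damaged proteins and is a classical target of the heat shock factor HSF1. Its brightest probe read 12.83, 12.17 and 12.17 (log2 level) on the IL6 arrays, against 7.67, 9.14 and 8.71 on the IL11 arrays and 9.09, 7.90 and 7.10 on the PBS arrays. All 3 IL6 tumours were far above every IL11 and PBS tumour, and the IL11 values overlapped those of PBS. The difference is visible before any normalization, with deposited signals of 9827.5, 6862.8 and 3969.8 for IL6, 317.4, 586.2 and 495 for IL11, and 357.8, 229.5 and 203.7 for PBS. The level was 14.7-fold higher with IL6 than with IL11 (95% interval 8.39 to 25.8), a log2 difference of -3.88 ± 0.36 (SE, n = 3 per group) with a limma adjusted p of 0.0381. In bulk tissue, fewer cells expressing a transcript and less transcript per cell cannot be told apart.

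The other Hspa1a probes gave the same picture at lower brightness. Probe 6270685 read 8.27, 7.22 and 7.87 with IL6 and 4.95, 5.46 and 4.89 with IL11, where it was detected on 1 of 3 arrays. It thus met the detection filter through the 3 IL6 arrays, where it is high, and its call is not separate support. It is not among the probes detected on all 6 arrays. Its difference was -2.69 ± 0.28 (SE, n = 3 per group), with a limma adjusted p of 0.0490. The size depends on the background handling, at -1.39 without background correction and -1.90 with an offset of 50. The third probe differed by -2.27, with groups that did not overlap and an adjusted p of 0.494. The call for Hspa1a depends on single arrays. Without IL6 replicate 1 or without IL6 replicate 3 no probe passed (adjusted p for the brightest probe 0.199 and 0.561). Without IL6 replicate 2 the brightest probe gave 0.0769 and probe 6270685 passed at 0.0219. Without IL11 replicate 3 no Hspa1a probe passed (0.0926 for the brightest), and the 2 probes that did, of Man2b1 and Zfp330, are described among the other observations. Without IL11 replicate 1 or 2 the brightest probe alone passed (0.0141 and 0.0293). Its difference stayed between -4.20 and -3.46 in these 6 fits. With all 9 arrays in the fit no probe passed (adjusted p 0.180 and 0.146 for the 2 Hspa1a probes), and with the 6 arrays normalized alone none did either (0.0585 and 0.0603).

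Hspa1b, the near-identical neighbour of Hspa1a, also encodes inducible Hsp70, and signal may be shared between the probes of these genes. Its brighter probe read 9.78, 8.93 and 9.09 with IL6, 7.09, 8.11 and 6.14 with IL11, and 6.45, 4.69 and 4.68 with PBS. Here the groups did not overlap, but 2 of the 3 IL11 tumours lay above every PBS tumour. The difference was -2.15 (95% interval -3.16 to -1.15), and -2.50 (-3.33 to -1.67) at the second probe. Neither passed the threshold (limma adjusted p 0.818 and 0.361).

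Dnajb1 encodes an Hsp40 co-chaperone that delivers clients to Hsp70. It read 13.47, 13.37 and 13.39 with IL6, 12.24, 12.19 and 12.43 with IL11, and 11.50, 11.30 and 11.21 with PBS. The 3 groups fell into 3 separate bands, with the IL11 tumours between the PBS and the IL6 tumours. The level was 2.18-fold higher with IL6 than with IL11 (1.72 to 2.76), and the limma adjusted p of 0.258 did not pass. Bag3, a co-chaperone that exchanges nucleotide on Hsp70, also separated the cytokines at a smaller distance, with 13.13, 13.18 and 13.11 with IL6, 12.38, 12.76 and 12.69 with IL11, and a difference of -0.53 (-0.90 to -0.16, limma adjusted p 0.955). Its PBS values of 12.22, 12.48 and 12.54 overlapped those of IL11.

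**Figure D2:**
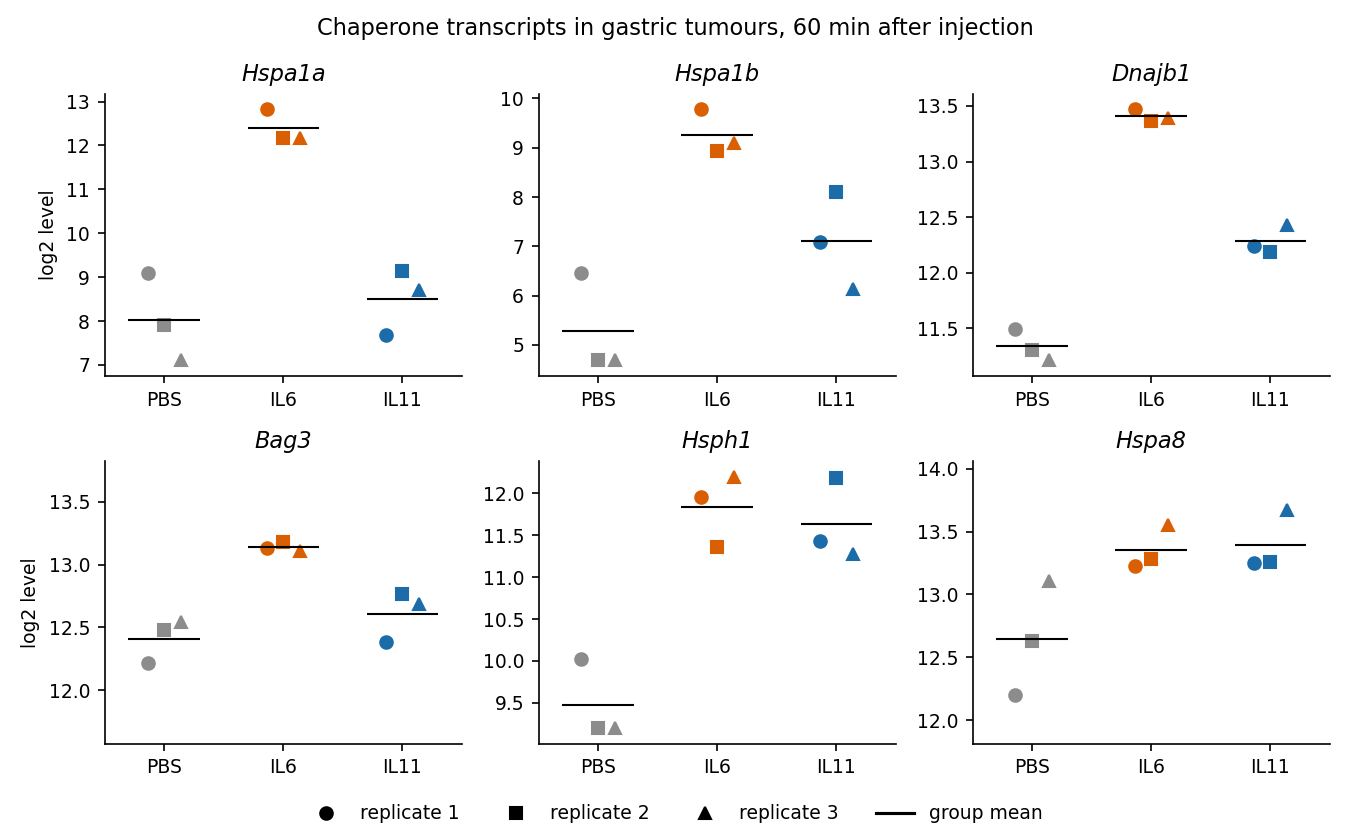
Log2 level of 6 chaperone genes (y axis, own range per panel) by group (x axis), 1 symbol per array and a bar at the group mean. The IL6 arrays lie above all IL11 arrays for Hspa1a, Hspa1b, Dnajb1 and Bag3, and overlap them for Hsph1 and Hspa8.

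The difference did not extend evenly over the chaperones. Hsph1, the gene of the Hsp110 nucleotide exchange factor, read 11.96, 11.36 and 12.20 with IL6 and 11.43, 12.19 and 11.27 with IL11, against 9.20 to 10.02 with PBS. The cytokine groups overlapped, both lay above PBS, and the difference was -0.21 (-0.87 to 0.45). Hspa8, the constitutive Hsc70 gene, differed by 0.04 (-0.37 to 0.45), the Hsp90 genes Hsp90aa1 and Hsp90ab1 by -0.05 (-0.73 to 0.63) and -0.08 (-0.55 to 0.38), and the mitochondrial Hsp60 gene Hspd1 by -0.04 (-0.41 to 0.33). The heat shock factor gene Hsf1 itself differed by 0.17 (-0.18 to 0.52). A pair of small heat shock protein genes pointed the other way, with Cryab at 0.79 (0.13 to 1.46) and Hspb1 at 0.84 (0.02 to 1.65), neither past the threshold (adjusted p 0.955 each). Cryab lay near the detection limit with IL6, where 2 of 3 arrays detected it. Over the list of inducible heat shock genes, 26 of 28 were measured. Of these, 1 (Hspa1a) passed the adjusted threshold, which was also the 1 gene (0.00812%) of all 12311, and 4 were lower and 2 higher with IL11 at an unadjusted p under 0.05. Over all genes the shares at that unadjusted threshold were 2.44% lower and 2.32% higher. The list's median difference was -0.07, against 0.00 over all genes.

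The promoters of the chaperone genes over 2-fold apart between the cytokines (Hspa1a, Hspa1b and Dnajb1), and of Hsph1, whose groups overlapped, are shown with that of Socs3, the STAT3 target. Each is the 250 bases before the annotated start in RefSeq, mouse build GRCm38.p6, written 5′ to 3′ on the gene's own strand, with capitals marking matches to GAANNTTC or TTCNNGAA (paired heat shock element units) or to TTCNNNGAA (a STAT-type palindrome). The windows are chr17:34972157-34972406 (minus strand) for Hspa1a, chr17:34959239-34959488 (minus) for Hspa1b, chr8:83607925-83608174 (plus) for Dnajb1, chr5:149636337-149636586 (minus) for Hsph1 and chr11:117969367-117969616 (minus) for Socs3.
Hspa1a: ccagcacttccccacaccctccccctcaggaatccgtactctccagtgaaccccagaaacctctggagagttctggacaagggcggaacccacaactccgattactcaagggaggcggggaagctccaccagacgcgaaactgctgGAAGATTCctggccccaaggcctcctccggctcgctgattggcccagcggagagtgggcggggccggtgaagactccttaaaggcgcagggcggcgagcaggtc
Hspa1b: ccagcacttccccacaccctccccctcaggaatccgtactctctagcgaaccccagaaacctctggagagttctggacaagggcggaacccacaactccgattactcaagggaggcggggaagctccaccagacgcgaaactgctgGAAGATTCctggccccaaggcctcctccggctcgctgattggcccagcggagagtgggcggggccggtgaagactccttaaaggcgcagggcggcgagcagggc
Dnajb1: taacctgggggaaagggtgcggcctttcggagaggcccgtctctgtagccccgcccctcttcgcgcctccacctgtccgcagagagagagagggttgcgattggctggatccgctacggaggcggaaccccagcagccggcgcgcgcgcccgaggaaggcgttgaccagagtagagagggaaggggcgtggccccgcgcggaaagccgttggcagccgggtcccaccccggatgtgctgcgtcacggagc
Hsph1: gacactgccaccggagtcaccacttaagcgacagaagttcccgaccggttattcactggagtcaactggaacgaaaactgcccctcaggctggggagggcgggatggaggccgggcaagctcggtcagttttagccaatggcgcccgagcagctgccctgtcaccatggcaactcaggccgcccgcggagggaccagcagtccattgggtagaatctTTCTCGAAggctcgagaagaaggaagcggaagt
Socs3: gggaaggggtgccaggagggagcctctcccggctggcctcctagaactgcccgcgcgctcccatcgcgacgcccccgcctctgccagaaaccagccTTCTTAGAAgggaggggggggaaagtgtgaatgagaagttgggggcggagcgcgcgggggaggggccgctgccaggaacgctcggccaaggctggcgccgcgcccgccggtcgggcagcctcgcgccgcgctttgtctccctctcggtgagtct
Hspa1a and Hspa1b were identical at 247 of these 250 bases (98.8%), and each held 1 GAANNTTC match, which begins at position -104 from the start. Hsph1 held 1 TTCNNGAA match at position -33, and the Dnajb1 window held neither unit. Both of these genes have 2 annotated starts, of which 1 is shown. From the other Hsph1 start the match lay at -54, and the other Dnajb1 window also held neither unit. Socs3 held 1 TTCNNNGAA match. All 3 motifs read the same on both strands. Over all 32851 windows of this length in the table, 6.69% held GAANNTTC, 7.17% held TTCNNGAA, 12.8% held either and 7.02% held TTCNNNGAA. Only exact matches were counted, so units with other letters or spacing were not searched for. Whether the matches bear on the transcript levels was not tested. A match describes the letters of the window only.

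The listed STAT3 feedback and target genes were close in level between the cytokines, and most lay slightly lower with IL11. Socs3 read 13.79, 13.93 and 13.98 with IL6, 13.41, 13.37 and 13.50 with IL11, and 12.22, 11.64 and 10.88 with PBS. Every cytokine-treated tumour was above every PBS tumour, and the IL11 tumours lay just below the IL6 tumours. The difference of -0.47 (95% interval -0.81 to -0.14) corresponds to a 1.39-fold higher level with IL6 (1.10 to 1.75) and did not pass the threshold (limma adjusted p 0.955). Gadd45g, a growth arrest and stress gene, read 13.25, 13.56 and 13.65 with IL6 and 12.78, 13.07 and 12.93 with IL11, against 10.31 to 11.41 with PBS. Its probes differed by -0.56 and -0.47, so IL6 again gave the slightly higher level.

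Of 38 genes on the list of STAT3 feedback and target genes, 36 were measured and 0 passed the adjusted threshold in limma, in either direction. At an unadjusted p under 0.05, 7 were lower with IL11 and 0 were higher, against 2.44% and 2.32% of all genes. The groups did not overlap for 9 genes lower and 2 genes higher with IL11, where the shares over all genes were 5.71% and 4.68%. Means were lower with IL11 for 24 genes and higher for 12, and the median difference was -0.21. For 31 of the 36 genes the 95% interval lay within 2-fold, a smaller share than the 92.4% of all genes. The 7 became 4 without IL11 replicate 1 and 4 without IL11 replicate 3, where 194 and 254 of all 12311 genes were lower. The median stayed between -0.22 and -0.15 without any 1 array. These genes were listed with earlier results of the same arrays known, so the counts are a description.

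The 7 genes included 2 that restrain cell death, Mcl1 at -0.46 (-0.80 to -0.11) and Bcl2l1 at -0.49 (-0.84 to -0.15). Mcl1 read 12.50, 12.54 and 12.75 with IL6 and 12.10, 12.15 and 12.17 with IL11, while PBS spread from 8.16 to 12.16. For Bcl2l1 only the brightest of 3 probes showed the difference, and the others gave 0.13 and -0.11. The feedback inhibitor gene Cish lay at -0.61 (-1.11 to -0.10), the adhesion molecule gene Icam1 at -0.40 (-0.78 to -0.02) and the transcription factor gene Irf1 at -0.44 (-0.83 to -0.05). All 5 Irf1 probes were lower with IL11, by 0.35 to 0.79 on the log2 scale.

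Other STAT3 targets did not separate. The kinase gene Pim3 differed by -0.33 (-0.69 to 0.03), Bcl3, which encodes a nuclear IκB-family protein, by -0.34 (-0.79 to 0.11), and the oncostatin M receptor gene Osmr by -0.09 (-0.56 to 0.37). Stat3 itself differed by 0.04 (-0.32 to 0.40) at its brightest probe and by 0.31 and -0.24 at the others. At the upper end, Lbp, the gene of a lipopolysaccharide-binding acute phase protein, read 9.48, 9.43 and 9.96 with IL11 and 9.40, 8.47 and 9.22 with IL6, against 7.68 to 7.87 with PBS. Its difference of 0.60 had an interval that just included 0 (limma adjusted p 0.955).

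**Figure D3:**
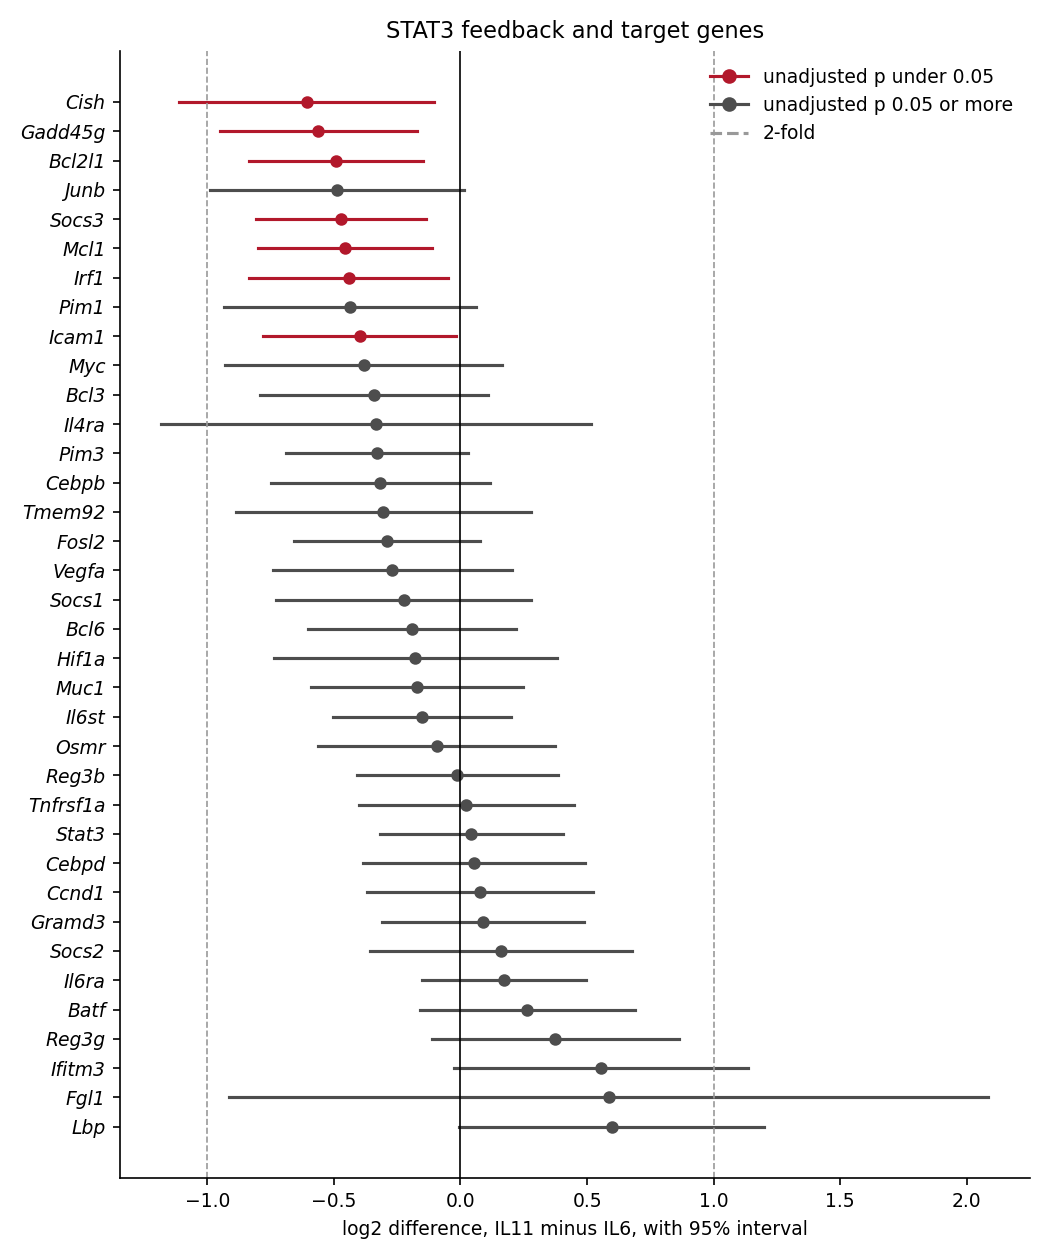
Difference between IL11 and IL6 (log2, x axis) for the 36 measured STAT3 feedback and target genes (y axis), with 95% intervals and dashed lines at 2-fold. The 7 genes with an unadjusted p under 0.05 all lie below 0, and none of the 36 passed the adjusted threshold.

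Early-response genes pointed in the same direction as the STAT3 targets. Immediate early genes are switched on within minutes of receptor signalling, without new protein synthesis. Of 34 listed, 27 were measured, 0 passed the adjusted threshold, 3 were lower and 0 higher with IL11 at an unadjusted p under 0.05, against 2.44% and 2.32% of all genes, and the median was -0.20. With median scaling 5 were lower, a setting in which 562 of all 12311 genes were lower and 77 higher at that p. Zfp36, whose protein destabilises cytokine mRNAs, read 12.03, 11.89 and 11.91 with IL6, 11.34, 11.38 and 11.36 with IL11, and 10.61, 10.18 and 10.01 with PBS. Its 3 groups lay in separate bands, with IL11 between PBS and IL6, as Dnajb1 did, and the difference was -0.58 (-0.90 to -0.25). Csrnp1, a nuclear protein gene named AXUD1 on the array, differed by -0.72 (-1.17 to -0.27), and Gadd45g belongs to this list too. The 3 became 5 without IL6 replicate 2, IL6 replicate 3 or IL11 replicate 2, where 328, 272 and 286 of all 12311 genes were lower. The AP-1 genes Fos and Junb differed by -0.14 (-0.48 to 0.20) and -0.49 (-0.99 to 0.01), and Egr1, which encodes a zinc-finger transcription factor, by -0.38 (-0.79 to 0.04).

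Genes that report ERK activity were next. Dusp6 encodes a phosphatase that inactivates ERK. It read 12.57, 12.23 and 12.44 with IL6, 11.85, 11.98 and 11.89 with IL11, and 11.76, 10.90 and 10.94 with PBS, and its 3 probes lay 0.49 to 0.77 lower with IL11. Areg, the gene of the epidermal growth factor receptor ligand amphiregulin, differed by -0.38 (-0.75 to -0.01). Of 9 measured ERK feedback genes, 0 passed the adjusted threshold, these 2 were lower at an unadjusted p under 0.05 and 0 were higher, against 2.44% and 2.32% of all genes. The mean was higher with IL11 for 1 of the 9, against 49.3% of all genes. The 2 became 1 with median scaling and on leaving out any array except IL6 replicate 2, without which there were 4. Over all 12311 genes, 562 were lower with median scaling. On leaving out 1 array 194 to 404 were, with 328 without IL6 replicate 2.

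NF-κB targets varied more from tumour to tumour. Of 17 measured, 0 passed the adjusted threshold, 3 were lower and 0 higher at an unadjusted p under 0.05, against 2.44% and 2.32% of all genes, and the median was -0.29. With median scaling 7 of the 17 were lower, a setting in which 562 of all 12311 genes were lower and 77 higher at that p. Nfkb2, which encodes an NF-κB subunit, differed by -0.55 without overlap between the cytokines, and Tnf, the tumour necrosis factor gene, by -0.68 (-1.23 to -0.14) near the detection limit. The remaining gene of the 3 was Icam1, which is also on the STAT3 list and was counted there. The neutrophil chemokine gene Cxcl1 read 9.41, 9.06 and 8.96 with IL6 and 7.20, 8.12 and 9.24 with IL11, and Il1b, the interleukin 1β gene, read 8.71, 8.16 and 9.09 with IL6 and 6.07, 7.76 and 8.68 with IL11. Both were low on IL11 replicate 1 and as high as with IL6 on IL11 replicate 3. The neutrophil genes S100a8 and S100a9 were low on IL11 replicates 1 and 2, at 6.73 and 6.07 on replicate 1 and 6.88 and 6.97 on replicate 2, and high on replicate 3, at 9.43 and 8.61. The mean log2 level of the 3 measured neutrophil markers was 5.95, 6.36 and 7.92 on IL11 replicates 1, 2 and 3 and 7.05 to 7.70 on the IL6 arrays, a list median of -0.88, while Mpo, Elane, Ly6g, Cxcr2, Ngp and Camp were not among the kept probes. Their part in these differences was not tested. Without IL11 replicate 1, 0 of the 17 NF-κB targets had an unadjusted p under 0.05, and 1 had without IL6 replicate 2, without IL6 replicate 3 or without IL11 replicate 2. In the same order, 194, 328, 272 and 286 of all 12311 genes were lower in these fits. The NF-κB count rose to 4 without IL6 replicate 1 and to 4 without IL11 replicate 3, where 404 and 254 of all genes were lower.

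The receptor genes of the pathway were at closely similar levels, and the ligand genes could not be compared as closely. Il6st differed by -0.15 (-0.50 to 0.20), Il6ra by 0.17 (-0.15 to 0.50) and Il11ra1 by -0.09 (-0.43 to 0.25). The dimmer Il6ra probes gave -0.22 and -0.03, on the other side of 0, and the dimmer Il11ra1 probe gave -0.18. The mouse Il11 transcript varied widely, at 9.58, 6.01 and 8.60 with IL6 and 7.62, 8.54 and 10.06 with IL11, a difference of 0.67 with an interval from -1.31 to 2.66. Within each group the tumours differed by more than 2 log2 units, so the comparison of this transcript is not informative at n = 3. The Il6 probe was detected on 1 of the 6 arrays and was not compared. The kinase genes Jak1, Jak2 and Tyk2 differed by 0.04, -0.20 and 0.12. Of the 20 measured genes of this list, Socs3 was the single one with an unadjusted p under 0.05.

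Interferon-response genes lay on the other side, higher with IL11. Usp18 encodes a protease that removes the ubiquitin-like modifier ISG15 and dampens type I interferon signalling. It read 7.22, 7.56 and 7.11 with IL6, 8.90, 8.10 and 9.34 with IL11, and 7.69, 9.78 and 8.09 with PBS. The cytokine groups did not overlap, and the PBS tumours lay across the IL11 range and above every IL6 tumour. The level was 2.80-fold higher with IL11 (95% interval 1.75 to 4.46), a log2 difference of 1.48, and its second probe gave 1.49. It did not pass the threshold (limma adjusted p 0.784).

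Oas2, which encodes an enzyme that makes the activator of the antiviral nuclease RNase L, read 7.64, 7.45 and 7.82 with IL6 and 9.23, 8.44 and 9.42 with IL11. The difference was 1.40 (0.81 to 1.98, limma adjusted p 0.573), while the PBS tumours read 7.22, 9.45 and 6.01 and so spanned both groups. Oasl2, a related gene, differed by 1.01 (0.45 to 1.58), again without overlap between the cytokines, and its dimmer probe gave 0.57 (-0.08 to 1.21) with overlapping groups. Its PBS values of 9.78, 9.42 and 8.14 covered much of the same range.

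Of 22 listed interferon-response genes, 17 were measured and 0 passed the adjusted threshold in limma. At an unadjusted p under 0.05, 6 were higher with IL11 (Usp18, Oas2, Oasl2, Gbp3, Ifit3 and Irf7) and 1 was lower (Irf1), against 2.32% and 2.44% of all genes. Means were higher with IL11 for 16 of 17, against 49.3% of all genes, and the median difference was 0.32. With median scaling means were higher for 13 of 17, against 28.4% of all genes. At an unadjusted p under 0.05, 3 were then higher, beside 77 of all 12311 genes. Gbp3, an interferon-inducible guanylate-binding protein gene, differed by 0.58 (0.13 to 1.03), Ifit3 by 0.78 (0.14 to 1.42) and Irf7, a transcription factor gene of the interferon loop, by 0.71 (0.03 to 1.39). Stat2, a transcription factor gene of the type I interferon signal, differed by 0.05 (-0.40 to 0.51). The number higher at an unadjusted p under 0.05 fell to 3 without IL6 replicate 1 and to 3 without IL11 replicate 3, and was 8 without IL11 replicate 2. In the same order, 459, 200 and 328 of all 12311 genes were higher in these fits.

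**Figure D4:**
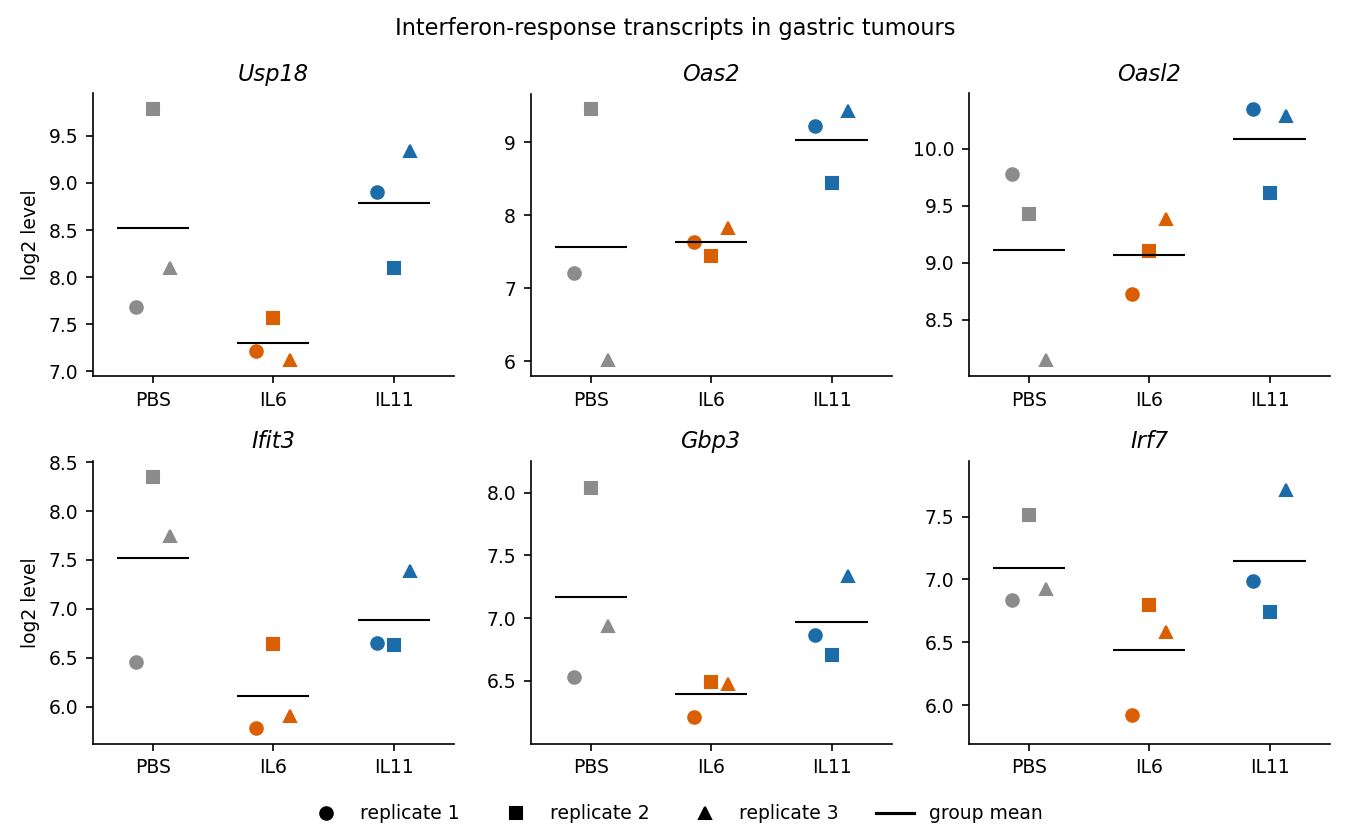
Log2 level of 6 interferon-response genes (y axis, own range per panel) by group (x axis), 1 symbol per array and a bar at the group mean. The IL11 arrays lie above all IL6 arrays for Usp18, Oas2, Oasl2 and Gbp3. The PBS arrays span both groups for Oas2, and all lie above the IL6 arrays for Usp18.

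Smooth muscle markers were higher with IL11 as well. All 7 measured of 9 had a higher mean with IL11, against 49.3% of all genes, and 3 had an unadjusted p under 0.05, against 2.32% of all genes, the actin-binding transgelin gene Tagln at 0.80 (0.31 to 1.29), the enteric smooth muscle actin gene Actg2 at 0.69 (0.18 to 1.20) and the intermediate filament gene Des at 0.67 (0.07 to 1.27). None passed the adjusted threshold, and the median was 0.67. Tagln lay near the detection limit with IL6, at 5.31, 5.20 and 5.09, and was detected on 2 of those 3 arrays. With median scaling the mean was higher for 6 of 7, against 28.4% of all genes. Of the 7, 1 then had an unadjusted p under 0.05, beside 77 of all 12311 genes higher. The summed linear level of the list was 6554 to 8443 in IL6 tumours, 7301 to 12160 in IL11 tumours and 7639 to 19520 in PBS tumours. The mean log2 level of the list was 8.90, 8.28 and 9.16 on IL11 replicates 1, 2 and 3, and that of the interferon-response list was 8.20, 7.86 and 8.48 on the same arrays. IL11 replicate 2 was thus the lowest of the 3 on both lists, close to the IL6 arrays at 8.06 to 8.32 and 7.56 to 7.91. Whether the muscle content of the samples plays a part in the interferon-response values was not tested. The number of muscle markers at an unadjusted p under 0.05 was 1 without IL6 replicate 3, 1 without IL11 replicate 3, 5 without IL6 replicate 2 and 6 without IL11 replicate 2. In the same order, 247, 200, 308 and 328 of all 12311 genes were higher in these fits. The list median ran from 0.37 to 0.94.

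Markers of other cell types varied with single tumours. Of 9 neutrophil markers 3 were measured, and all 3 had a lower mean with IL11, with a median of -0.88 that ran from -1.63 to -0.37 without any 1 array. Endothelial markers had a higher mean with IL11 for 10 of 12, against 49.3% of all genes, with a median of 0.22. With median scaling the mean was higher for 8 of 12, against 28.4% of all genes. Rgs5, a regulator of G protein signalling known from pericytes, read 6.45, 6.87 and 5.17 with IL6 and 7.14, 7.37 and 8.00 with IL11. Macrophage and monocyte markers had a median of -0.20, with 2 of 11 higher, but 6 of 11 were higher without IL6 replicate 2 or without IL11 replicate 2. Fibroblast markers had a median of 0.05. Epithelial markers had a median of -0.11, with 4 of 9 higher, and the squamous keratin gene Krt14 was high on IL11 replicate 3 alone of the 6 arrays, at 11.21 against 6.74 to 7.78. Muc5ac, the surface mucin gene, was low on IL6 replicate 2, at 5.81 against 8.49 to 10.80.

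**Figure D5:**
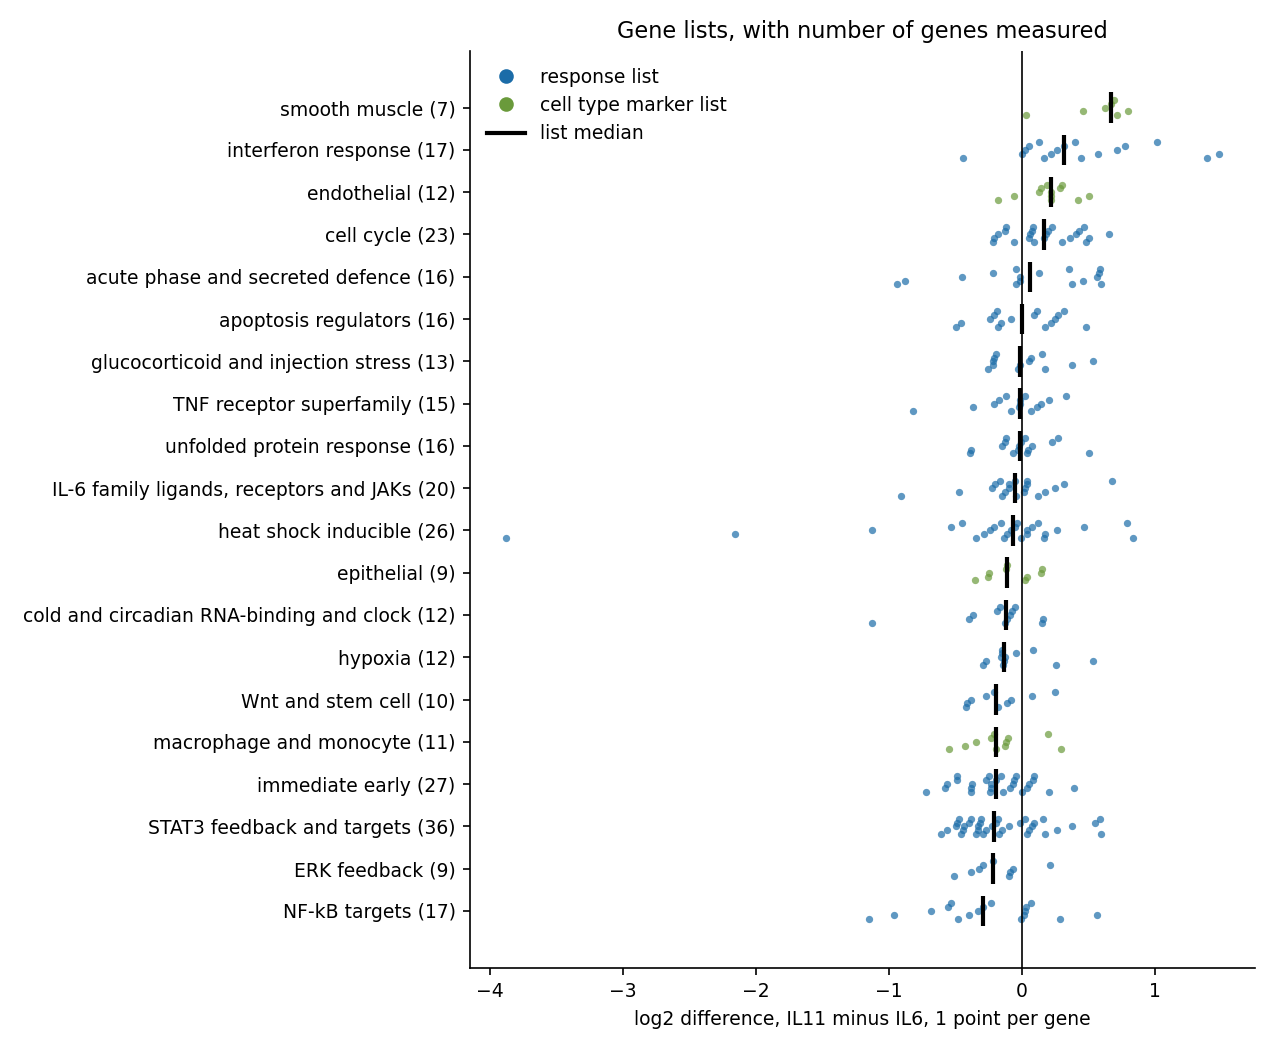
Difference between IL11 and IL6 (log2, x axis) for each measured gene of 16 response lists and 4 cell type lists (y axis, number measured in brackets), with a bar at the list median. The smooth muscle and interferon-response medians lie highest and the NF-κB median lowest, and only the heat shock list holds genes beyond -2.

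Over all kept probes, members of the lists included, 32 (0.179%) were over 2-fold higher with IL11 and 26 (0.146%) over 2-fold lower, and for 17 and 13 of them the groups did not overlap. Kdm5b, a histone H3 lysine demethylase gene, read 7.86, 7.99 and 7.62 with IL6 and 6.81, 6.88 and 6.57 with IL11, a difference of -1.07 (-1.46 to -0.68) with a limma adjusted p of 0.494. The effect was uneven over its 3 probes, which gave -1.07, -0.41 and -0.11. Ipo9, an importin gene, differed by -1.26 (-1.73 to -0.80) and Siah2, the gene of a ubiquitin ligase, by -0.78 (-1.10 to -0.46). Ipo9 read 8.58, 8.39 and 8.64 with IL6 and 7.37, 7.58 and 6.88 with IL11, and the PBS tumours, at 9.16, 6.56 and 8.07, spanned both groups. Siah2 read 7.16, 7.12 and 7.17 with IL6 and 6.39, 6.36 and 6.35 with IL11. The IL11 values of Siah2 lay within the PBS range of 5.39 to 6.66, and the IL6 values lay above it.

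Cirbp, which encodes a cold-inducible RNA-binding protein, read 8.59, 9.55 and 9.08 with IL6, 7.79, 8.14 and 7.91 with IL11, and 9.63, 9.69 and 10.15 with PBS. Both cytokine groups lay below PBS and the IL11 tumours lay lowest, with a difference of -1.13 (-1.68 to -0.58) and a limma adjusted p of 0.955. The related gene Rbm3 differed by -0.16 (-0.56 to 0.24), and Cirbp was the single gene of 12 measured on the cold and circadian list with an unadjusted p under 0.05. Ddit4, an inhibitor of mTORC1, lay below PBS (10.62 to 10.65) in both groups, at 9.59, 8.92 and 9.44 with IL6 and 9.69, 9.73 and 10.15 with IL11, a difference of 0.54 (0.04 to 1.03).

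Among probes higher with IL11, the homeobox gene Onecut3 read 5.66, 5.20 and 5.32 with IL6 and 6.34, 6.41 and 6.79 with IL11, and its 3 probes gave 1.12, 0.64 and 0.42. Srsf10, a splicing factor gene, gave 0.95 at 1 probe and -0.13, -0.19 and 0.00 at the 3 others, and Bcl11a, a zinc-finger repressor gene, gave 0.77 and 0.03. For Srsf10 and Bcl11a the difference thus stood at 1 probe alone, while the 3 Onecut3 probes all lay higher with IL11. The probe that the array names GIF, a name that 2 genes share in the gene table, read 8.42, 6.47 and 7.14 with IL6 and 9.92, 9.10 and 8.83 with IL11, a difference of 1.95 (0.89 to 3.00, limma adjusted p 0.955). The PBS tumours spanned 5.30 to 8.74 at this probe, wider than the gap between the cytokines.

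Detection itself split the groups for few probes. Of the 17843, 34 were detected on all 3 IL11 arrays and on no IL6 array, and 40 the other way. Such probes met the detection filter only through the group that detected them, so the filter itself selected this split. None passed the adjusted threshold. Where no array of a group detected a probe, its level there is a bound, taken from the lowest signal among detected probes of each array. By that bound, the death receptor gene Tnfrsf25 was at least 1.38-fold lower with IL11, at 5.43, 5.72 and 5.73 with IL6 and not detected with IL11. Its limma adjusted p was 0.715, and its other probe was detected on 0 of the 6 arrays. BC099439, an unnamed transcript, was at least 1.70-fold higher with IL11 (limma adjusted p 0.955), and its PBS values of 8.93, 9.20 and 5.33 reached well above both groups. The further probes of this kind named by the rule had bounds from 1.21-fold (Taf2) to 1.53-fold (Rnf125).

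Secreted defence genes, which gp130 cytokines are known to induce, gave no call. Of 16 measured acute phase and defence genes, 0 passed the adjusted threshold and 0 had an unadjusted p under 0.05, with a median of 0.06. Without IL11 replicate 3, 3 were lower at that unadjusted threshold, beside 254 of all 12311 genes. The median ran from -0.16 to 0.35 without any 1 array. The antimicrobial lectin gene Reg3a read 7.82, 6.38 and 7.56 with IL6 and 7.30, 7.64 and 8.20 with IL11, against 4.60 to 5.43 with PBS, so both cytokine groups lay above PBS and overlapped. Reg3g differed by 0.37 (-0.11 to 0.86) and Reg3b, near the top of the array's range at 13.73 to 14.24, by -0.01 (-0.41 to 0.39). Its second, dimmer probe read 10.47, 9.53 and 10.11 with IL6 and 10.66, 10.70 and 10.84 with IL11, without overlap, a difference of 0.69 (0.16 to 1.22, limma adjusted p 0.955), so the probes of this gene disagree.

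For genes of other programmes, the medians were -0.01 for the unfolded protein response (16 measured), -0.14 for hypoxia (12), -0.01 for glucocorticoid and injection stress (13), 0.16 for cell cycle (23), 0.00 for apoptosis regulators (16) and -0.20 for Wnt and stem cell genes (10). No member of these lists passed the adjusted threshold, and 1, 1, 1, 1, 0 and 0 members were higher and 1, 0, 0, 0, 2 and 1 lower at an unadjusted p under 0.05, against 2.32% and 2.44% of all genes. Some of these counts share genes. Ddit4 was the higher member of both the hypoxia and the glucocorticoid list. The 2 lower apoptosis regulators were Mcl1 and Bcl2l1, already counted among the STAT3 targets. The cell cycle median rests on single arrays. It was 0.39 without IL6 replicate 1, with 5 of 23 genes higher at an unadjusted p under 0.05, and -0.17 without IL6 replicate 2, with 4 lower. Of all 12311 genes, 459 were higher without IL6 replicate 1 and 328 lower without IL6 replicate 2. Within the unfolded protein response, Sdf2l1, an endoplasmic reticulum chaperone complex gene, gave 0.51 and Herpud1, a gene of protein degradation there, gave -0.39 and -0.35 at its probes, so they pointed in opposite directions. The TNF receptor superfamily (15 measured) had a median of -0.01. Sox9, a transcription factor gene of epithelial progenitors, read 13.65, 13.92 and 13.77 with IL6 and 13.23, 13.34 and 13.54 with IL11, a difference of -0.41 (-0.78 to -0.04), and its second probe gave -0.68.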

How the data were processed

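Illumina MouseWG-6 bead arrays measured tumour RNA of 9 mice, 1 array each. The deposited table gives each probe's mean bead intensity before any background correction, written out by BeadStudio 3.4.0 per the file headers. Beside each intensity stands a deposited detection value, a fraction that rises with the signal. It was read as 1 minus the detection p-value, and a value of at least 0.95 counted as detected. A second deposited table holds processed values of the authors, taken as log2 from their range. The tools lumi and Partek are named per the submitters' processing notes, with their roles, and the table's centring, not given in the sources used here.

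From the probe signals, limma 3.58.1 in R 4.3.3 corrected background and quantile-normalized all 9 arrays (neqc, offset 16, negative controls inferred from detection), giving log2 levels. The fit (lmFit, eBayes, two-sided moderated tests) used the 3 IL11 and 3 IL6 arrays alone, with a mean per group. It kept probes detected on at least 3 of these 6 arrays. Adjusted p-values are Benjamini-Hochberg over the 17843 kept probes, with a threshold of 0.05, and intervals are 95%. PBS levels are shown beside the results without a test. The median SE was 0.19 with 8.81 degrees of freedom, and 3 arrays per group limit the precision.

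Names came from RefSeq's gene table (GRCm38.p6), which matched 12499 kept probes by current and 3357 by older symbol, and 1987 kept the array's name. For list counts and medians, a gene with several kept probes (3910 genes) stood by the probe with the highest mean over the 6 arrays. Named probes were those past the threshold, in each direction the 10 smallest p among groups without overlap and the 5 largest differences at an unadjusted p under 0.05 detected on all 6 arrays, up to 3 members per list and direction, up to 5 probes detected in 1 group only, and a set of chaperone, STAT3, receptor and Reg3 genes. Other genes are named where a list is described, with values for context. The members, lists and rule were chosen with earlier results of these data known. The script was tested on simulated data. Alternatives covered the filter, background correction, normalization, arrays fitted, moderation, weights, the probe per gene, a replicate block, each array left out and the authors' values.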

Additional observations from a re-analysis of the deposited data

How the results depend on the processing

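Against 2 probes past the threshold as reported, the count was 0 with no detection filter, 0 with the 6 arrays normalized alone, 0 with all 9 arrays in the fit, 0 with a replicate block, 0 on the authors' values (all rows, or as many of the brightest rows as kept probes, a setting chosen after seeing the data), 1 among probes detected on all 6 arrays, 1 without moderation, 1 with 1 probe per gene, and 0 to 2 on leaving out 1 array. It was 2 or 3 without background correction, with median scaling, with trend and robust moderation, with array weights and with an offset of 50. In limma the probes at an unadjusted p under 0.05 numbered 424 with 9 arrays, 749 with the block, 889 with the 6 arrays alone, 2355 with no filter, and 2165 and 915 on the authors' values. The passing probes were not always the same. Without background correction the second Hspa1a probe gave 0.188 and Dnajb1 passed at 0.0288, with trend and robust moderation the brightest Hspa1a probe gave 0.200 and Dnajb1 passed at 0.0118, at an offset of 50 Dnajb1 passed at 0.0422, and with median scaling Hspa1b passed at 0.0448. Without moderation the passing probe was Siah2 (0.0492). The causes of these changes were not tested.

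Same-numbered arrays were no more alike than others: their deviations correlated at -0.02, -0.12 and 0.10 over probes, against -0.2 to 0.227 for arrays of unlike number. With 3 arrays per group, this cannot show whether the samples were paired. The replicate numbers are those of the sample titles and columns. The descriptions of the IL6 and IL11 samples also carry a second number that is 1 for every one. With the number as a replicate block, Hspa1a gave adjusted p 0.0639 and 0.102. Median scaling in place of quantile normalization moved the median of all genes to -0.13, and of 914 probes at an unadjusted p under 0.05, 12.3% were then higher with IL11, against 49.4% of 881. Relative to that shift the list medians were -0.21 for STAT3 targets, -0.20 for immediate early genes, -0.32 for NF-κB targets and 0.36 for interferon-response genes.

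Of 82 named probes followed over 18 settings, 75 kept their direction in all of them. The sign turned under median scaling for Gramd3 (-0.069), Sting1 (-0.10), Stat3 (-0.063) and Reg3b (0.044), and with array weights for Sting1 (-0.021). On leaving out 1 array the ranges that crossed 0 were -0.034 to 0.18 for Gramd3, -0.10 to 0.14 for Hspa8, -0.35 to 1.43 for Il11, -0.29 to 0.050 for Osmr, -0.15 to 0.11 for Reg3b, -0.056 to 0.12 for Stat3 and -0.12 to 0.24 for Sting1. A slide could not be used as a block, since the headers used here name none.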

Other observations

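A pair of genes on chromosome 8 had probes that fell to 2 separate levels on the same arrays, and Zfp330 was named after its values were seen. The mannosidase gene Man2b1 read 9.07 and 8.82 on IL11 replicates 1 and 2 and 8.91 on PBS replicate 2, while the other 6 arrays lay at 11.09 to 11.84 at that probe. The zinc-finger gene Zfp330 read 4.47, 4.53 and 4.72 on the same 3 arrays and 9.21 to 9.86 on the other 6. Each gene has a second kept probe with a narrow range over all 9 arrays, 11.45 to 12.11 for Man2b1 and 9.12 to 9.84 for Zfp330. The differences between IL11 and IL6 were -1.62 and -3.56 at the first probes and 0.13 and -0.26 at the second. Without IL11 replicate 3 these were the 2 probes past the threshold in limma (adjusted p 0.0303 for Man2b1 and 3.34e-05 for Zfp330), and the cause was not tested.

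The 3 probes of Mmp3, the stromelysin gene, named after its values were seen, had means 2.05 to 2.12 higher with IL11 on the log2 scale, with intervals that included 0. Probe 1510750 read 6.79, 4.95 and 7.38 with IL6, 6.69, 7.40 and 11.25 with IL11, and 10.02, 5.18 and 4.45 with PBS, so IL11 replicate 3 and PBS replicate 1 stood high and the groups overlapped.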
